A study of Mus musculus with 2 samples.

Results

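The subunits of the transcription factor NF-kB and the proteins that hold it in check were compared between Trp53 knockout and control organoids of mouse fallopian tube (oviduct) epithelium. The genes were chosen by symbol, 10 of the 25668 symbols in the deposited tables: the subunit genes Nfkb1, Nfkb2, Rel, Rela and Relb, and the inhibitor genes Nfkbia, Nfkbib, Nfkbie, Nfkbiz and Tnfaip3. All 10 were present in both tables and all 10 had a mean of at least 1 TPM. The data are 1 library of organoids in which Trp53, the gene of the tumour suppressor p53, was knocked out, and 1 library of normal (WT) organoids. The control culture came from a mouse carrying the Cas9 and EGFP transgene Gt(ROSA)26Sortm1(CAG-cas9*,-EGFP)Fezh, in which the broadly active CAG promoter drives both proteins. Both cultures carried the treatment label conditioned medium. Age, the site of the Trp53 edit and the number of clones or animals behind each culture are not stated in the labels.

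NF-kB acts as a pair of subunits that binds DNA and switches on genes of inflammation and cell survival. In resting cells, IkB proteins keep these pairs in the cytoplasm, and signals from cytokine and microbial receptors lead to the destruction of IkB, so that the pairs enter the nucleus. Rela, Rel and Relb can activate transcription themselves, while Nfkb1 and Nfkb2 encode precursors whose shortened products pair with them. Several inhibitor genes are themselves switched on by NF-kB, which closes a feedback loop, and in mucosal epithelium the pathway is known for its role in the response to microbes.

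The DNA just before the start of these genes was searched for the letters of an NF-kB binding site. RefSeq promoter entries (build GRCm38.p6) were matched by symbol for 7 of the 10 genes, with 10 start sites in all; Nfkb1, Relb and Nfkbiz had no entry. The 250 bases before each start were searched on both strands for the outer letters of an NF-kB site, which are GGG, any 5 letters and then CC, and for the tighter run of GGG, any 3 letters and then TTCC. Every match of the tighter run is also a match of the looser one. The tighter letters were chosen after the matches were seen. The tighter letters occurred before 8 of the 10 starts, in 5 of the 7 genes, and before 4.65% of all 32851 RefSeq starts. The looser letters were common, before 45.8% of all starts and before 9 of these 10. Neither Rela nor Nfkbib held the tighter letters in this window. A match is a description of letters and not evidence of binding, and binding was not measured.

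The upstream stretches of the 3 inhibitor genes that carry the tighter letters are shown first, since these genes close the feedback loop. Each is written 5′ to 3′ along the gene, ends on the base before the start, and has the matches in capitals.
Nfkbia, chr12:55492648-55492897, minus strand: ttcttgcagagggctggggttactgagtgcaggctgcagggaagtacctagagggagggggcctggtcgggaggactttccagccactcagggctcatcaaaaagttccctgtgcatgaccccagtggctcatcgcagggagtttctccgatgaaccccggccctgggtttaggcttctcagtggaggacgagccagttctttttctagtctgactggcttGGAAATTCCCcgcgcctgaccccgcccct
Nfkbie, chr17:45555450-45555699, plus strand: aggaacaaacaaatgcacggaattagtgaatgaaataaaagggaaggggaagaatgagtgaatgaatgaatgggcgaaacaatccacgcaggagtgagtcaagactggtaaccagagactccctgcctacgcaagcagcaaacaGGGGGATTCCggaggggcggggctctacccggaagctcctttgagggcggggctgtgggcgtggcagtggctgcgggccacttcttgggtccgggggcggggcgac
Tnfaip3, start 1, chr10:19015411-19015660, minus strand: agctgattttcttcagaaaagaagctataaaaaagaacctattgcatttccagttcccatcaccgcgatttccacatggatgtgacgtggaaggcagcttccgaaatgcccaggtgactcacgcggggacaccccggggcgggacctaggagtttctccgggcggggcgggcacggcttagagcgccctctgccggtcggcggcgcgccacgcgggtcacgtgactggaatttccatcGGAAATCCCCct
Around the match before the other start of Tnfaip3 the letters run as follows.
Tnfaip3, start 2, chr10:19012034-19012063, minus strand: ctgaaaacgtGGGTTATTCCcctcctcctc
In Nfkbia the match lay at positions -29 to -20 from the start, and at the first start of Tnfaip3 at positions -12 to -3, both reading on the opposite strand. In Nfkbie it lay further away, at positions -106 to -97, and at the second start of Tnfaip3 at positions -90 to -81, both reading on the strand of the gene.

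Among the subunit genes, Nfkb2 and Rel held the tighter letters, and the stretches around the matches are shown so that their letters can be set beside those of the inhibitor genes.
Nfkb2, start 1, chr19:46304689-46304736, plus strand: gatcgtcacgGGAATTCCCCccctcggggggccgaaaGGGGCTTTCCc
Nfkb2, start 2, chr19:46305449-46305478, plus strand: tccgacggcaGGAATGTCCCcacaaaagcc
Nfkb2, start 3, chr19:46305695-46305724, plus strand: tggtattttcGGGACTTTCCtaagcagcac
Rel, chr11:23771041-23771070, minus strand: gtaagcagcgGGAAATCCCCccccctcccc
The first start of Nfkb2 had 2 such matches within its last 38 bases, and each of its other starts had 1. A match stood before Nfkbie and Tnfaip3, whose RNA passed the 2-fold limit in the values that follow, and before Nfkbia, Nfkb2 and Rel, whose RNA did not.

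**Figure D1:**
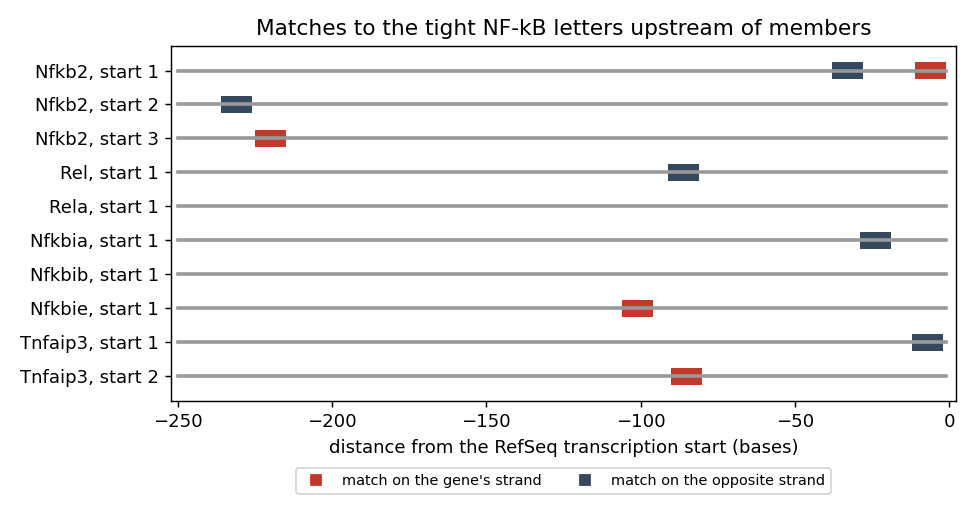
Positions of matches to the tighter NF-kB letters in the 250 bases before each RefSeq start (x axis, distance from the start in bases; 1 row per start, 10 starts of 7 genes), coloured by strand. Rela and Nfkbib have no match, and the first start of Nfkb2 has 2.

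Depth and identity were checked before the genes were compared. Whole reads could be recovered from the TPM values for 95.1% of the 16534 genes above 0 in either library, and summed to at least 27799868 in the knockout library and 100662615 in the control library, so the control values carry less counting error. These are the fewest reads that give the TPM values, and a common factor would multiply them. Whether single reads or read pairs were counted is not given in the sources used here; if the ends of a pair were counted apart, the counting intervals that follow are too narrow. Trp53 was 2.42 TPM in the knockout library and 83.2 TPM in the control library. Epithelial identity was clear in both libraries, with Epcam at 697 TPM in the knockout and 713 TPM in the control. The 8 fibroblast and stromal markers summed to 0.0172 TPM in the knockout and 0.113 TPM in the control, and the 5 endothelial markers to 0.0269 TPM in the knockout and 0.0829 TPM in the control. The 5 smooth muscle markers summed to 18.0 TPM in the knockout and 1.62 TPM in the control, mainly through Acta2, at 17.8 TPM in the knockout and 1.07 TPM in the control, while Myh11, Des and Cnn1 were listed at 0 in the knockout. The 10 immune markers summed to 16.4 TPM in the knockout, where 6 were listed at 0, and to 291 TPM in the control, where 3 were. Most of that control sum was Lyz2, listed at 0 in the knockout and at 257 TPM in the control. The macrophage marker Cd68 was 16.0 TPM in the knockout and 25.5 TPM in the control, and Csf1r, the receptor for macrophage colony-stimulating factor, was 0.420 TPM in the knockout and 8.78 TPM in the control, while the pan-leukocyte gene Ptprc was 0.0110 TPM in the knockout and 0.0886 TPM in the control. Epithelial cell states did differ: the 6 basal and squamous markers summed to 3008 TPM in the knockout and 4.72 TPM in the control, the 7 multiciliated markers to 60.45 TPM in the knockout and 210.1 TPM in the control, and the 5 secretory markers to 2628 TPM in the knockout and 15990 TPM in the control. Most of the multiciliated sum in the knockout was Foxj1, at 52.7 TPM in the knockout and 116 TPM in the control. Of the 7 multiciliated markers, 5 were under 1 TPM in the knockout and 1 in the control. Most of the secretory sum was Lcn2, which is also on the list of NF-kB target genes used here, at 2342 TPM in the knockout and 15660 TPM in the control. Of the other secretory markers Ovgp1 and Wt1 were also lower by 2-fold or more, while Pax8 was 46.0 TPM in the knockout and 44.8 TPM in the control and Msln was 232 TPM in the knockout and 243 TPM in the control. These bulk values cannot separate fewer cells of a type from less RNA per cell, and the part of these marker differences in the NF-kB values was not tested.

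All 5 NF-kB subunit genes were inside 2-fold between the libraries, as were 3 of the 5 inhibitor genes. On the log2(TPM + 1) scale used for the calls, 2 of the 10 genes, Nfkbie and Tnfaip3, passed the limit of 2-fold below the control, against 15.3% of the 11228 genes measured. None of the 10 was at least 2-fold higher, against 8.35% of the genes measured, and the other 8 lay between these limits. The count of 2 in 10 is near that background share, and it was 0 after rescaling by the median ratio, after quantile normalization and with a pseudocount of 5. The median difference was -0.27 over the 10 genes and -0.17 over all genes measured. With 1 library per genotype no test between genotypes was possible, and every difference compares these 2 libraries.

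The 10 genes stood in the same order of TPM level in both libraries, from Nfkbia at the top through Nfkbiz, Rela, Nfkb1, Nfkbib, Nfkb2, Relb, Nfkbie and Tnfaip3 down to Rel. In the knockout library the exact 95% counting intervals of the level overlapped between 3 pairs of neighbours, Rela and Nfkb1, Nfkbib and Nfkb2, and Nfkbie and Tnfaip3. In the control library they overlapped for 1 pair, Relb and Nfkbie. In the knockout library Relb was 10.7 TPM and Nfkbie 5.46 TPM, and in the control library Relb was 13.4 TPM and Nfkbie 12.5 TPM.

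**Figure D2:**
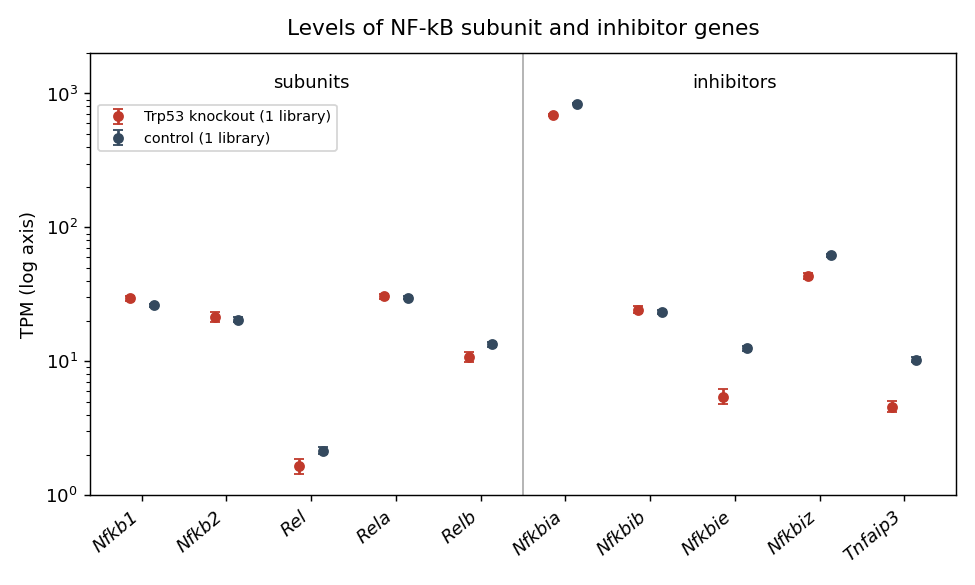
TPM of the 10 genes (log axis) in the Trp53 knockout library and the control library, 1 point per library, with exact 95% Poisson intervals that cover counting error only. The subunit genes nearly coincide, Nfkbie and Tnfaip3 sit lower in the knockout library, and Nfkbia is the highest in both.

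Among the activating subunits, Rela, the main partner in most cells, was the most abundant. Rela was 30.5 TPM in the knockout library and 29.8 TPM in the control library, a ratio of 1.02, for which read counting alone allows 0.968 to 1.08 (95%). That interval includes 1 for TPM as deposited; the log2 difference of Rela, 0.03 as deposited, was 0.20 after rescaling by the median ratio and 0.14 after quantile normalization. Rel, the subunit best known from lymphocytes, was the least abundant, at 1.64 TPM in the knockout and 2.15 TPM in the control, a ratio of 0.763 (0.655 to 0.885). Rela thus stood 18.6 times above Rel in the knockout library and 13.9 times above it in the control library. Relb, the activating partner in the slower non-canonical arm of the pathway, was 10.7 TPM in the knockout and 13.4 TPM in the control, a ratio of 0.80 (0.724 to 0.883). Rel and Relb were the 2 subunit genes with values below the control, beyond counting error for TPM as deposited but well inside 2-fold. After quantile normalization the log2 difference was 0.19 for Rel and -0.06 for Relb.

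The precursor genes were level or slightly above the control. Nfkb1, whose product is the usual partner of Rela, was 29.6 TPM in the knockout and 26.2 TPM in the control, a ratio of 1.13 (1.08 to 1.19). Nfkb2, whose precursor is cut to the partner of Relb and otherwise acts as an inhibitor, was 21.5 TPM in the knockout and 20.5 TPM in the control, a ratio of 1.05 (0.948 to 1.15). The interval of Nfkb1 lay above 1 and that of Nfkb2 included 1, both for TPM as deposited. Relb stood at 0.501 of the Nfkb2 level in the knockout and 0.655 of it in the control.

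Summed over the 5 subunit genes, TPM was 93.95 in the knockout library and 92.1 in the control library. Rela made up 32.5% of that sum in the knockout and 32.4% in the control. Nfkb1 made up 31.5% in the knockout and 28.4% in the control, and Nfkb2 made up 22.8% in the knockout and 22.3% in the control. Relb made up 11.4% in the knockout and 14.6% in the control, and Rel made up 1.75% in the knockout and 2.34% in the control. The make-up of the subunit RNA was close in the 2 libraries, with a slightly larger Nfkb1 share and smaller Relb and Rel shares in the knockout.

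**Figure D3:**
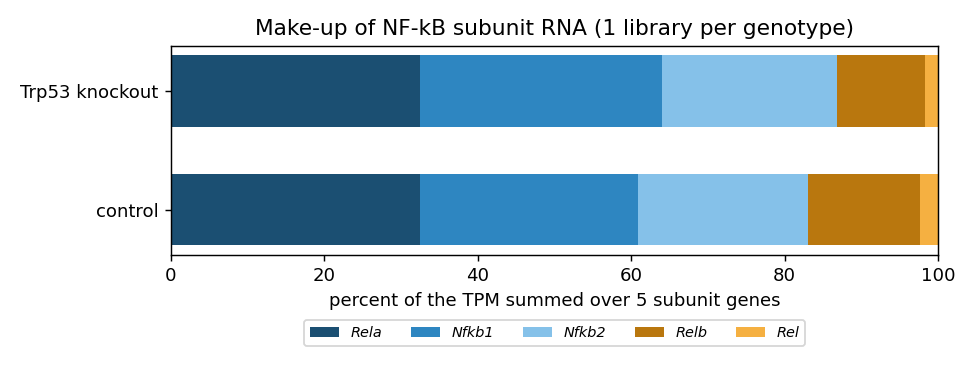
Share of each subunit gene in the TPM summed over the 5 subunit genes (x axis, percent; 1 bar per library). Rela takes 32.5% in the knockout and 32.4% in the control, and Relb 11.4% in the knockout and 14.6% in the control.

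The classical IkB genes differed among themselves in how the knockout library compared with the control. Nfkbia encodes IkB alpha, the inhibitor that NF-kB itself rapidly re-makes. It was 692 TPM in the knockout and 841 TPM in the control, a ratio of 0.823 (0.810 to 0.836), and its level was at or above that of 99.1% of the 25668 genes in the knockout and 99.3% in the control. Nfkbia was so abundant that its counting interval was the narrowest of the 10. Its value was below the control beyond counting error for TPM as deposited, but inside 2-fold. Nfkbib, which encodes IkB beta, was 24.3 TPM in the knockout and 23.3 TPM in the control, a ratio of 1.05 (0.971 to 1.13), an interval that includes 1 for TPM as deposited. Nfkbie, which encodes IkB epsilon, was 5.46 TPM in the knockout and 12.5 TPM in the control, 2.29-fold lower with an interval of 2.0-fold to 2.63-fold. On the log2(TPM + 1) scale the difference of Nfkbie was -1.06, just past the threshold, and 14.2% of the genes measured had a difference at or below it.

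The share of Nfkbie among the IkB genes was smaller in the knockout library. Nfkbia was 127 times as abundant as Nfkbie in the knockout and 67.4 times in the control, and Nfkbib 4.46 times in the knockout and 1.86 times in the control. Nfkbie made up 0.756% of the TPM summed over Nfkbia, Nfkbib and Nfkbie in the knockout and 1.42% in the control. That summed IkB level was 722 TPM in the knockout and 877 TPM in the control, which is 7.68 times the summed subunit level in the knockout and 9.52 times in the control. IkB RNA exceeded subunit RNA in both libraries, almost wholly through Nfkbia, and by less in the knockout. RNA levels say nothing of the amounts of the proteins or of their turnover.

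Nfkbiz and Tnfaip3, which restrain or modify the response by other routes, were also below the control in the knockout library, and Tnfaip3 passed the 2-fold limit. Nfkbiz encodes IkB zeta, a nuclear protein that works with NF-kB at a subset of its targets and can activate as well as repress. It was 43.3 TPM in the knockout and 61.8 TPM in the control, a ratio of 0.70 (0.663 to 0.739) and inside 2-fold. Tnfaip3 encodes A20, a ubiquitin-editing enzyme that shuts off signalling above the IkB kinase. It was 4.59 TPM in the knockout and 10.3 TPM in the control, 2.24-fold lower with an interval of 2.02-fold to 2.50-fold. The log2(TPM + 1) difference of Tnfaip3 was -1.02, with 15.0% of the genes measured at or below it. The calls of Nfkbie and Tnfaip3 lay close to the limit: both were inside 2-fold when the libraries were rescaled by the median ratio, at -0.91 for Nfkbie and -0.87 for Tnfaip3, and after quantile normalization, at -0.80 for Nfkbie and -0.76 for Tnfaip3. With a pseudocount of 5 in place of 1 they were also inside it, at -0.74 for Nfkbie and -0.67 for Tnfaip3. The nearest of the 10 genes that did not pass the limit was Nfkbiz, with a difference of -0.50.

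**Figure D4:**
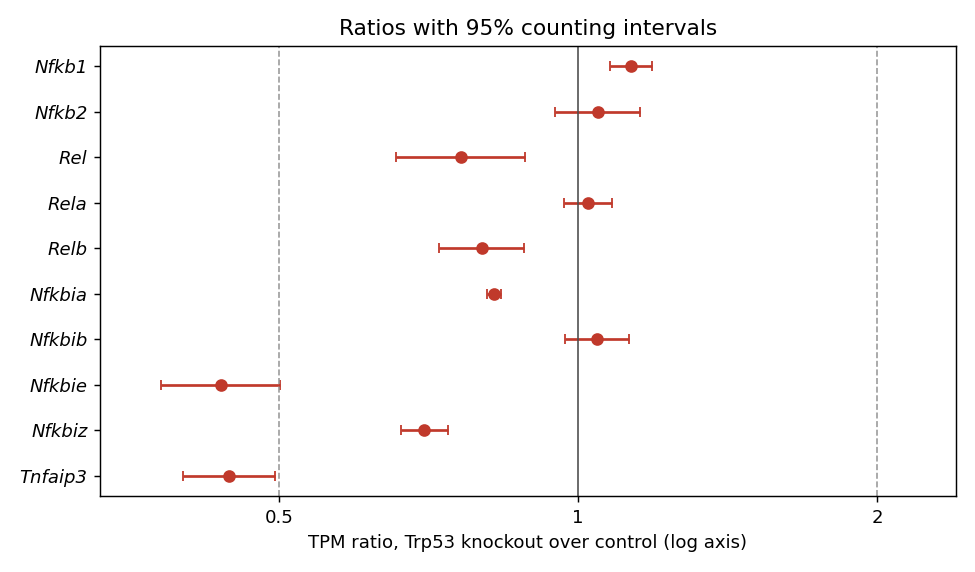
TPM ratio of each gene, Trp53 knockout over control (log axis), with exact 95% counting intervals; dashed lines mark 2-fold. The intervals of Nfkb2, Rela and Nfkbib include 1, that of Tnfaip3 lies wholly below 0.5, and that of Nfkbie reaches 0.501.

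Rescaling changes what counts as level. Rescaling by the median ratio moved the median of all genes by 0.16 on the log2 scale, and quantile normalization moved it by 0.20 and the median of the 10 genes to 0.04. Nfkb1, Nfkb2, Rela and Nfkbib were above 0 and Relb, Nfkbia, Nfkbie, Nfkbiz and Tnfaip3 below 0 under each of the 5 other settings that can move a gene’s value (another pseudocount or another scaling), while Rel, below 0 under 4 of the 5, was at 0.19 after quantile normalization. Relative to the all-gene median of -0.17, Nfkb1, Nfkb2, Rela and Nfkbib were above it, and the other 6 genes were below it.

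The rest of the pathway was read from lists of genes by role. Of 10 ligand genes measured, 5 were below the control by 2-fold or more and 2 above it, with a median difference of -1.05, against 15.3% lower and 8.35% higher and a median of -0.17 over all genes. Ltb, lymphotoxin beta, the ligand that drives the non-canonical arm, was 1.63 TPM in the knockout and 48.6 TPM in the control, 29.8-fold lower (21.3-fold to 43.1-fold). Lta, its partner in the same complex, was 2.78 TPM in the knockout and 13.2 TPM in the control. Il17c, an epithelial cytokine, was 0.236 TPM in the knockout from 3 recovered reads and 3.46 TPM in the control, a ratio of 0.0682 (0.0139 to 0.203). Eda, picked with its values known, was 0 TPM in the knockout and 2.26 TPM in the control. Il17c and Eda passed the mean TPM filter only through the control, so their lower calls follow in part from the filter. At a mean TPM of at least 5, 3 of 8 ligand genes were lower and 2 higher. At that filter 1091 of all 8451 genes were lower and 705 higher. Il1a, the alarm cytokine interleukin-1 alpha, lay on the other side of the control, at 21.3 TPM in the knockout and 1.08 TPM in the control, a ratio of 19.7 (16.3 to 24.0). Tnf, named for its role as the prototype inducer and picked with its values known, was 20.1 TPM in the knockout and 55.9 TPM in the control.

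Of 17 receptor genes measured, 5 were lower and 1 higher, with a median difference of -0.80, against 15.3% lower and 8.35% higher over all genes. Eda2r, a tumour necrosis factor receptor relative and a known p53 target, was 0.0943 TPM in the knockout and 8.69 TPM in the control. The knockout value came from 8 recovered reads, and the ratio was 0.01085 (0.00468 to 0.0214). Eda2r passed the mean TPM filter only through the control, so its lower call follows in part from the filter. At a mean TPM of at least 5, 3 of 10 receptor genes were lower and 1 higher, against 1091 and 705 of all 8451 genes. Cd14, the co-receptor for bacterial lipopolysaccharide, was 177 TPM in the knockout and 588 TPM in the control. Tlr2, the receptor for bacterial lipoproteins, was 1.48 TPM in the knockout and 5.16 TPM in the control. Tnfrsf1b, the second receptor for tumour necrosis factor, was higher, at 10.1 TPM in the knockout and 2.46 TPM in the control, a ratio of 4.10 (3.665 to 4.60). Tnfrsf1a, the broadly expressed first receptor, and Ltbr, the lymphotoxin beta receptor, both picked with their values known, were 53.3 and 67.2 TPM in the knockout and 99.3 and 118 TPM in the control.

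Of 29 kinases and adaptors measured, 2 were lower and 0 higher, with a median difference of -0.26, against 15.3% lower and 8.35% higher over all genes. Ikbke, a kinase of the IkB kinase family that also serves interferon induction, was 8.34 TPM in the knockout and 23.4 TPM in the control. Irak2, a kinase below interleukin-1 and Toll-like receptors, was 11.3 TPM in the knockout and 27.5 TPM in the control. Both passed the 2-fold limit. Traf2 and Birc2, which act together below tumour necrosis factor receptors, lay on opposite sides. On the log2(TPM + 1) scale they were just inside the limit, at 0.97 for Traf2 and -0.94 for Birc2. Their TPM ratios without the added 1 were just past 2-fold. Traf2 was 22.0 TPM in the knockout and 10.7 TPM in the control, and Birc2 was 6.72 TPM in the knockout and 13.8 TPM in the control. The IkB kinase complex itself, picked with its values known, was inside 2-fold. Chuk and Ikbkb, its catalytic subunits, were 19.7 and 11.2 TPM in the knockout and 27.5 and 13.6 TPM in the control, and Ikbkg, its scaffold, was 6.45 TPM in the knockout and 12.2 TPM in the control. Map3k14, the kinase of the non-canonical arm, chosen likewise, was 0.892 TPM in the knockout and 1.68 TPM in the control.

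Of 18 other inhibitors and feedback regulators measured, 0 were lower and 1 higher, with a median difference of -0.12, against 15.3% lower and 8.35% higher over all genes. The 1 higher gene was Nfkbid, which encodes another nuclear IkB, at 2.58 TPM in the knockout and 0.369 TPM in the control, a ratio of 7.0 (4.94 to 10.1). Nfkbid passed the mean TPM filter only through the knockout, so its higher call follows in part from the filter. The count of higher genes was 0 of 16 at a mean TPM of at least 5, and 0 of 18 with a pseudocount of 5. Nfkbid thus lay above the control, while Nfkbiz, which also encodes a nuclear IkB, lay below it. Bcl3, also a nuclear IkB and picked with its values known, was 29.6 TPM in the knockout and 32.8 TPM in the control. Nfkbil1 was 29.3 TPM in the knockout and 46.0 TPM in the control, and the A20-binding partners Tax1bp1 and Tnip1 were 61.5 and 18.8 TPM in the knockout and 95.4 and 28.6 TPM in the control. These 3 genes were inside 2-fold.

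Of 37 known NF-kB target genes measured, 13 were lower and 6 higher in the knockout library, with a median difference of -0.55, against 15.3% lower and 8.35% higher over all genes. The 4 with the largest differences were Ccl2, Saa3, Ccl7 and Ccl20. Ccl20, the chemokine that draws dendritic cells and lymphocytes to mucosa, was 82.9 TPM in the knockout and 2158 TPM in the control, 26.0-fold lower (24.9-fold to 27.2-fold). Ccl2 was at 0.904 TPM in the knockout and 1030 TPM in the control. Saa3 was at 0.130 TPM and Ccl7 at 0.141 TPM in the knockout, from 3 and 2 recovered reads. Ccl2, Saa3, Ccl7 and Vcam1, the last named with its values known, passed the mean TPM filter only through the control. Their lower calls thus follow in part from the filter. At a mean TPM of at least 5, 12 of 33 targets were lower and 5 higher, against 1091 and 705 of all 8451 genes. The neutrophil chemokines Cxcl1 and Cxcl2, equally classical targets and picked with their values known, were near level, at 108 and 35.6 TPM in the knockout and 114 and 30.2 TPM in the control. Cxcl5, another neutrophil chemokine chosen likewise, was lower, at 3617 TPM in the knockout and 7523 TPM in the control, past the 2-fold limit. The differences of the 6 higher targets ran from 1.08 for Tnfaip8 to 1.81 for Ptgs2, both named with their values known. The 37 targets were spread over both directions, from -9.08 for Ccl2 to 1.81 for Ptgs2, and all genes measured ran from -9.08 to 10.4. The 5 subunit genes spanned -0.30 to 0.17. A range widens with the number of genes, so these ranges cannot be set against each other.

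**Figure D5:**
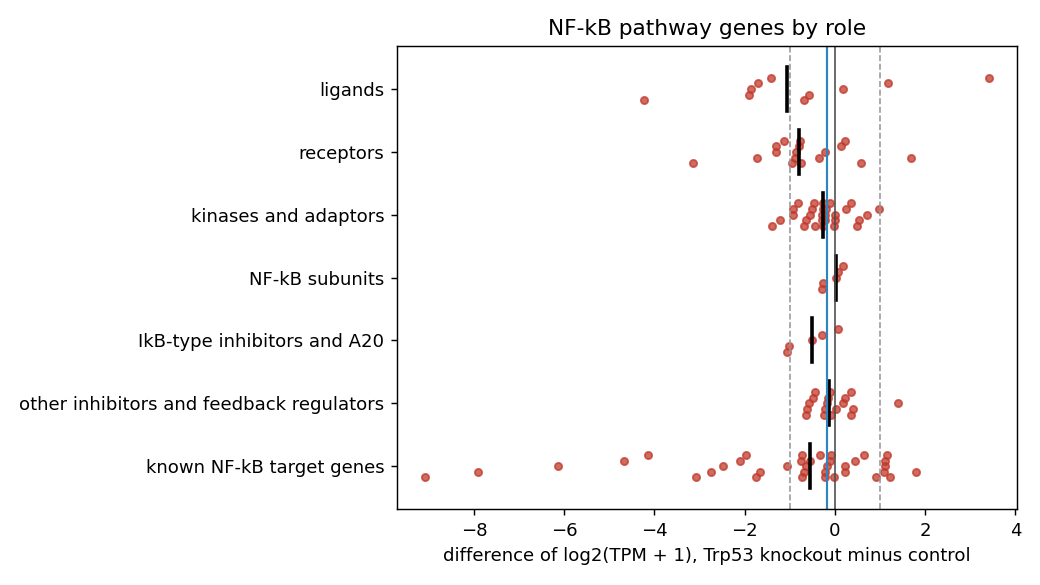
Difference of log2(TPM + 1), Trp53 knockout minus control (x axis), for each measured gene of 7 role lists (1 point per gene); black ticks are list medians, the blue line is the median of all genes and dashed lines mark 2-fold. The 5 subunit genes lie within -0.30 to 0.17, and the target genes reach from -9.08 to 1.81.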

How the data were processed

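RNA from 1 Trp53 knockout and 1 control culture was made into strand-preserving libraries (NEBNext Ultra II Directional) and sequenced as paired ends, per the labels' protocols. The authors deposited TPM, a level per unit of gene length with equal library totals, for 25668 symbols. Per the submitters' processing notes the genome build was GRCm39. The aligner, counter, strand setting and annotation were not given in the sources used here.

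Differences are log2(TPM + 1), knockout minus control, called at 2-fold where the mean of both libraries was at least 1 TPM. For each gene the fewest whole reads, with 1 length, that give both TPM values were solved for; the TPM that 1 read is worth was set from GENCODE M21 transcript lengths. Ratio intervals are exact Clopper-Pearson and level intervals exact Poisson intervals at 95% from these reads, and cover counting error only. The steps were tested on data simulated from the same transcript lengths, and recovered reads were scored apart from a common factor. That test cannot show whether those lengths fit the deposited values. There are no replicates, so no p-value or SD is given. Members and lists were chosen with earlier results of these data known. Named genes are the 10 members, Trp53, the markers beside a result and the 4 largest differences per list; any other is marked in the text as chosen with its values known. Protein sequences were not used here. Python 3.11.15, numpy 2.4.6, pandas 2.3.3, scipy 1.17.1 and matplotlib 3.10.9 were used.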

Additional observations from a re-analysis of the deposited data

How the results depend on the processing

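No paired analysis was possible because each genotype has 1 library. With a pseudocount of 0.1, 1 of 29 kinases or adaptors was higher and 9 of 17 receptors were lower. Of all 11228 genes, 1080 were then higher and 2057 lower. With a pseudocount of 5, 0 of the 10 members (and so 0 of the IkB-type inhibitors and A20) were lower, 0 other inhibitors were higher, 1 kinase or adaptor, 2 receptors and 3 ligands were lower, 2 targets were higher, and 563 genes of all were higher and 930 lower. At a mean TPM of at least 5, 0 of 16 other inhibitors were higher, and 3 of 10 receptors and 3 of 8 ligands were lower. Of all 8451 genes then measured, 1091 were lower and 705 higher. With fewer genes measured, low genes drop out. Rescaling by the median ratio gave 0 lower members and inhibitors, 1 higher kinase or adaptor and a member median of -0.12. Quantile normalization gave 0 lower members and inhibitors, 1 higher kinase or adaptor, 3 lower receptors of 16 measured and a member median of 0.0407. Over all genes the split was 937 higher and 1715 lower as deposited, 1191 and 1461 after median-ratio rescaling, and 1292 and 1321 after quantile normalization. Without mitochondrially encoded genes and the 100 highest genes, 1 of 29 kinases or adaptors and 2 of 18 receptors were higher. Of all 11671 genes then measured, 1081 were higher. At a 4-fold threshold 0 members and inhibitors, 0 kinases or adaptors, 1 receptor, 1 ligand and 9 of 37 targets were lower. At that threshold 0 other inhibitors, 0 receptors, 1 ligand and 0 targets were higher. Of all genes, 267 were then higher and 661 lower. Lower targets numbered 11 to 13 under every other pseudocount, filter and scaling. At a 1.5-fold threshold 2 other inhibitors, 7 kinases or adaptors and 11 receptors were lower, 2 kinases or adaptors were higher, and 1782 genes of all were higher and 3116 lower. Each of these shifts follows by arithmetic from the changed setting. Which scaling is right for these libraries was not tested. The lowest recovered number of reads among the 10 genes was 217, for Rel in the knockout library, itself the fewest that give its TPM values.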

Other observations

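The 5 genes of ubiquitin chain assembly and removal given here were picked with their values known. They were inside 2-fold on the log2(TPM + 1) scale, as were 8576 of the 11228 genes measured. Of the linear ubiquitin ligase, Rnf31, its catalytic subunit, was 14.4 TPM in the knockout library and 9.655 TPM in the control library, a ratio of 1.49 (1.37 to 1.61). Its partners lay on the other side of the control: Sharpin was 10.4 TPM in the knockout and 20.6 TPM in the control, a ratio of 0.505 (0.449 to 0.567), and Rbck1 was 50.4 TPM in the knockout and 60.7 TPM in the control. The deubiquitinases that act against such chains, Otulin and Cyld, were 30.6 and 6.19 TPM in the knockout and 41.8 and 9.05 TPM in the control.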
